A study of Mus musculus with 6 samples.

Results

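Xin, myospryn and myofibril assembly proteins are the 9 mouse genes Xirp1, Xirp2, Nrap, Smyd1, Mypn, Myoz1, Myoz2, Cmya5 and Des, taken by name from the 12625 genes of the deposited count table. All 9 were measured, and all passed the filter on low counts, which removed 0 genes. They were examined in 3 RANKL and 3 vehicle libraries of C2C12 cells, an immortal mouse myoblast line whose cells fuse into myotubes. The RANKL group received recombinant murine RANKL at 100 ng/ml for 72 h, starting after 5 days of differentiation, and the other group received vehicle. RANKL is the cytokine best known as the signal for osteoclast formation, and the stated aim was to learn its effects on muscle fibres. Both groups are cultures of a single cell line, without nerve or other tissue cells. Nothing in the labels says that the libraries of a group were separate cultures. Any p-value here thus reflects differences among these libraries alone, and their spread may be technical.

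A myofibril is built from premyofibrils, in which short actin filaments are gathered by scaffold proteins before titin, nebulin and myosin order them into sarcomeres. Z-discs then crosslink the actin filaments of neighbouring sarcomeres, and costameres tie the outermost Z-discs to the cell membrane, with desmin filaments running between them. Xin repeat proteins and Nrap act at the actin filaments, Smyd1 with the myosin folding machinery, myopalladin and the myozenins in the Z-disc, and myospryn and desmin at the costamere. In muscle, several of these genes are known as markers of differentiation or of fibre repair.

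The 9 genes were chosen by measured values, namely their RANKL against vehicle contrast in these same libraries. Their differences between the groups are therefore given as a description, with no p-value. Beside these stand fitted log2 fold changes, RANKL over vehicle, with the standard error (SE) and 95% interval of edgeR's quasi-likelihood fit over all genes. By that fit 2 of the 9 genes were called higher (Xirp2 and Cmya5) and 1 lower (Xirp1), at an adjusted p under 0.05 over all genes. Since the 9 genes were chosen by the same contrast, these calls, here and below, are part of the description and no independent support. Among all 12625 genes 5.35% were called higher and 7.5% lower, or 12.9% in either direction, and of all calls 41.7% were higher, against 63.1% with total count scaling.

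Total counts lay between 32732604 and 37445933 in the RANKL libraries and between 33566746 and 39677999 in the vehicle libraries. On log2 CPM (CPM being counts scaled to library size by TMM), principal component 1 divided RANKL from vehicle with 56.0% of the variance. Along component 2, with 14.7%, the RANKL libraries spread out, replicate 1 at one end and replicate 3 at the other. All 8 myotube markers searched for were measured, with a summed level of 16602 to 17002 CPM in the RANKL libraries and 18209 to 18398 CPM in the vehicle libraries. Acta1, Myh3 and Myh8 made up the 3 of these markers that fell. The others were not called, with log2 fold changes of 0.04 for Ckm, 0.05 for Tnnt3, 0.01 for Myog and Gm7325, and -0.09 for Tmem8c. All 8 markers of proliferating or undifferentiated cells were measured. They summed to 139 to 159.7 CPM under RANKL and 110.4 to 117 CPM under vehicle, with 4 members (Mki67, Top2a, Cdk1 and Ccnb1) higher. The rest were not called, and of these Pax7 (-0.31), Id1 (-0.19) and Id3 (-0.24) leaned lower and Myf5 (0.14) higher on the log2 scale. Of 8 fibroblast markers 7 were measured, summing to 4908 to 5487 CPM under RANKL and 4433 to 4684 CPM under vehicle, with 1 (Col3a1) higher. Macrophage and osteoclast markers were nearly absent, since only Cd68 and Itgam of 8 were measured, at 1.54 to 2.47 CPM together under RANKL and 1.20 to 1.35 CPM under vehicle. Of 6 endothelial markers 3 were measured, at 2.82 to 3.53 CPM under RANKL and 2.95 to 3.58 CPM under vehicle, with 0 called. Of 4 smooth muscle markers 2 were measured, at 1731 to 1751 CPM under RANKL and 1732 to 1811 CPM under vehicle. Tagln was higher, at a log2 fold change of 0.45, and Acta2, the more abundant of the pair, was not called, at -0.05. In these bulk libraries fewer myotubes and less RNA per myotube cannot be told apart, and the part of these markers in the results on the 9 genes was not tested.

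Promoter windows of 7 of the 9 genes were found among the RefSeq windows on GRCm38.p6, which run from 250 bases before to 50 bases after a start site. No window is given for Xirp1 and Myoz1. The MEF2 site, the letters bound by the MEF2 factors of muscle, was found on either strand in 2 of the 7, those of Xirp2 and Myoz2. It occurs in 3.19% of all 32851 windows. The E-box CANNTG, the core letters of sites bound by MyoD family factors, was found in 6 of the 7 and in 72.3% of all windows. Windows of Xirp2, Myoz2 and Cmya5 are shown because the first pair carry the MEF2 letters, and because Xirp2 and Cmya5 are the pair with higher values in every RANKL library. Capitals mark the MEF2 site (the run of 10 letters in Xirp2 and Myoz2) and the E-boxes, of which 2 overlap each other in Xirp2.
Xirp2, chr2:67445752-67446051, plus strand: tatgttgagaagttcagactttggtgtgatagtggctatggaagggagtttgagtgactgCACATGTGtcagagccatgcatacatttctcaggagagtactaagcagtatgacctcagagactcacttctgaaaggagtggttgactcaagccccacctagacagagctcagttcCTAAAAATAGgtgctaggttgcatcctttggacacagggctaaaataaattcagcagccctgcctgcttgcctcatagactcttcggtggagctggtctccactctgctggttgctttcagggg
Myoz2, chr3:123034938-123035237, minus strand: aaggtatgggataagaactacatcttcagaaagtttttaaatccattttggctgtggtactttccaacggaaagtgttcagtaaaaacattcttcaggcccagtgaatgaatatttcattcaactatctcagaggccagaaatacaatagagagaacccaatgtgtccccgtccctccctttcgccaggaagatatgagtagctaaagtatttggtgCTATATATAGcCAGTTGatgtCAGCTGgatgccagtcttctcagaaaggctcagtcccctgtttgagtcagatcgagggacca
Cmya5, chr13:93144675-93144974, minus strand: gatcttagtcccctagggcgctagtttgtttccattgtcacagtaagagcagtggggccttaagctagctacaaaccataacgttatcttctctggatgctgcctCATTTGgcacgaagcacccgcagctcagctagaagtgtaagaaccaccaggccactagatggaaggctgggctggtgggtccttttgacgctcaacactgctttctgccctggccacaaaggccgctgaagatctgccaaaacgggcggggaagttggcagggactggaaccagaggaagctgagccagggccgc

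The MEF2 letters CTAAAAATAG began 74 bases before the Xirp2 start site, and CTATATATAG began 33 bases before that of Myoz2. The Myoz2 match holds TATATATA close to the start site, so the letters alone cannot tell a MEF2 site from a TATA box there. The CArG box, bound by the serum response factor Srf, was found in 0 of the 7 windows and in 1.63% of all windows. CATTCC, the M-CAT letters of TEAD factors, was found in Mypn alone of the 7, where it overlaps an E-box, and in 14.7% of all windows. The kappaB site of NF-kB was found in Des alone of the 7 and in 4.51% of all windows. These are matches of letters within the windows and say nothing of binding, and the remaining windows (Nrap, Smyd1, Mypn and Des) are described by these counts only.

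Xirp1 and Xirp2 encode the Xin repeat proteins, whose repeats bind and bundle actin filaments and which gather at myotendinous junctions, at intercalated discs of the heart and at sites of myofibril damage. The pair stood on opposite sides of the vehicle values. Xirp1 had 313, 348 and 355 CPM in RANKL replicates 1, 2 and 3, against 415, 399 and 395 CPM in vehicle replicates 1, 2 and 3. Every RANKL library lay below every vehicle library, and RANKL replicate 1 was the lowest of the 6. Its log2 fold change of -0.25 ± 0.04 (SE), with a 95% interval of -0.34 to -0.16, is a RANKL level of 0.839 times the vehicle level. Xirp1 spans 120013755 to 120023598 on the minus strand of chromosome 9 (mm10), with 3 merged exons and 5839 exon bases, and shares no exon base with another gene.

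Xirp2, known as myomaxin and described in the mouse as a target of MEF2A, had 160.2, 139.8 and 148 CPM in the 3 RANKL libraries, against 134, 122 and 123 CPM in the 3 vehicle libraries. The groups did not overlap, with RANKL replicate 1 the highest, although the lowest RANKL library stood only a little above the highest vehicle library. Xirp2 had a log2 fold change of 0.24 ± 0.05 (SE), with an interval of 0.14 to 0.34. Without any one of the 6 libraries it lay between 0.19 and 0.29, and that of Xirp1 between -0.29 and -0.20. Xirp2 is a long gene, on the plus strand of chromosome 2 from 67446002 to 67526614, with 11979 exon bases, of which 168 overlap Gm13601 on the opposite strand. The use of strand in counting is not stated, so reads from such overlaps cannot be assigned.

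The balance between the Xin repeat genes can be read from the deposited values per length, in RPKM (CPM per kilobase of gene). The Xirp2 to Xirp1 ratio of RPKM was 0.250, 0.196 and 0.203 in the RANKL libraries, against 0.157, 0.149 and 0.152 in the vehicle libraries. Xirp1 thus remained the more abundant of the pair in all 6 libraries. The mean ratio was 0.216 ± 0.0292 under RANKL and 0.153 ± 0.00423 under vehicle (SD, n = 3 each).

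**Figure D1:**
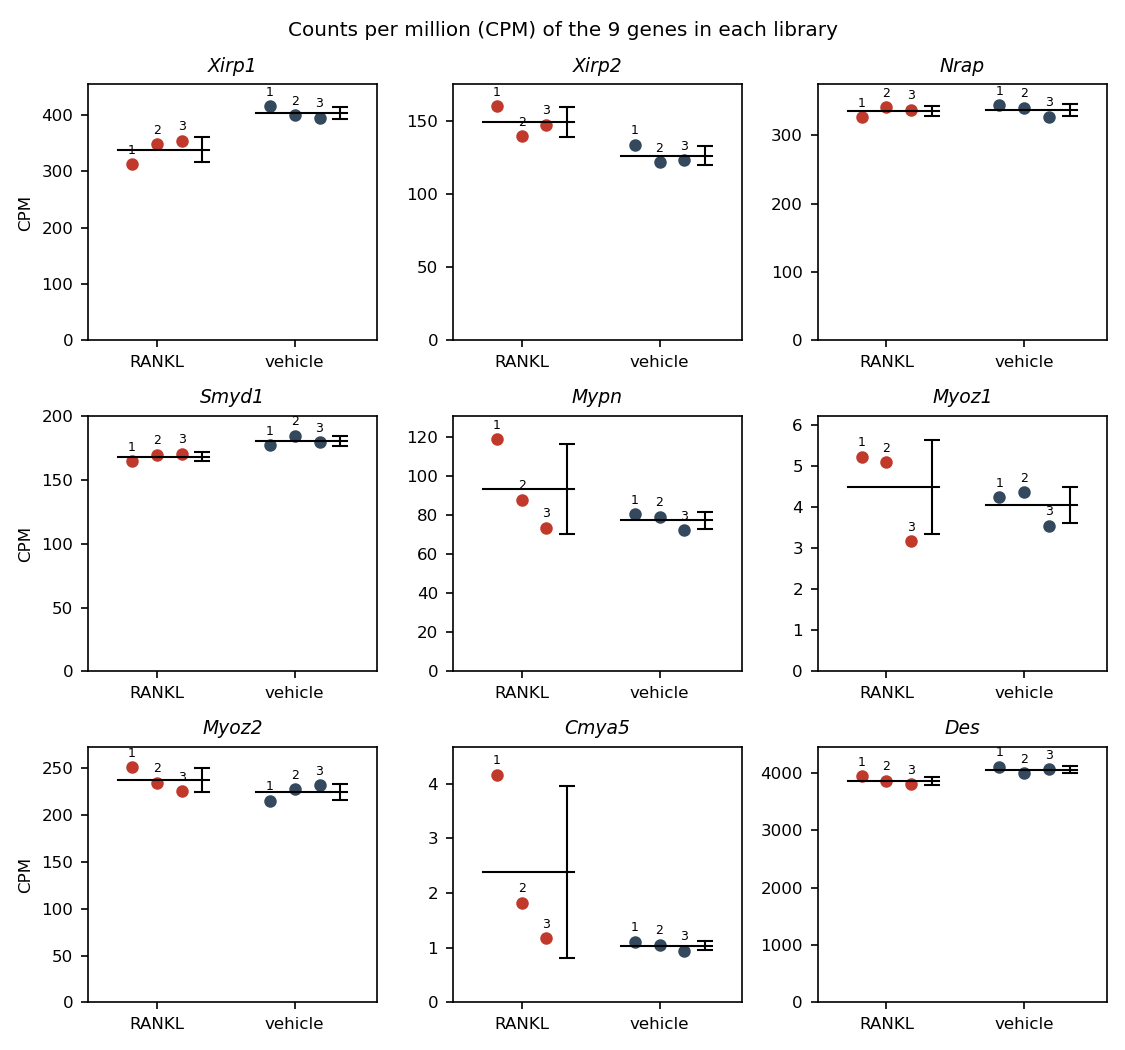
CPM of each of the 9 genes (vertical axes from 0) in the RANKL libraries (left, red) and the vehicle libraries (right, blue), with replicate numbers above the points, the mean as a line and the SD as a bar (n = 3). Xirp1 lay lower and Xirp2 higher in every RANKL library, Nrap hardly moved, and Mypn and Cmya5 were highest in RANKL replicate 1, at 119 and 4.17 CPM.

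Nrap and Smyd1 act while myofibrils are being built. Nrap, the nebulin-related anchoring protein, is an actin-binding scaffold of premyofibrils and of the myotendinous junction, and Smyd1 is a muscle methyltransferase that works with Unc45b and Hsp90 in myosin folding. Nrap had 327, 341 and 338 CPM in the RANKL libraries, against 344, 340.2 and 328 CPM in the vehicle libraries. The groups overlapped almost completely. Its log2 fold change was -0.01 ± 0.03 (SE), with an interval of -0.08 to 0.06, so that a change larger than 0.08 in either direction lies outside it. The sign of so small a value depended on the processing, at 0.02 with total count scaling and 0.01 with the trend on gene length removed.

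Smyd1 had 164, 169.7 and 170.3 CPM in the RANKL libraries, against 177, 184 and 179 CPM in the vehicle libraries. The difference was small, but the groups did not overlap. Smyd1 was not called, at a log2 fold change of -0.10 ± 0.03 (SE) with an interval of -0.17 to -0.03. Limma-voom and the fit with the trend on gene length removed did call Smyd1 lower, which made 2 members lower in those fits. Nrap lies on the minus strand of chromosome 19 from 56320035 to 56390037, where 376 of its 5507 exon bases overlap Habp2 and Gm17197 on the opposite strand. Smyd1 lies on the minus strand of chromosome 6 from 71213940 to 71322233 and shares no exon base with another gene.

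Myopalladin and the myozenins belong to the Z-disc. Mypn encodes myopalladin, which tethers nebulin and alpha-actinin and binds the ankyrin repeat protein Ankrd1. Mypn had 119, 87.8 and 73.6 CPM in the RANKL libraries, against 80.5, 79.1 and 72.4 CPM in the vehicle libraries. RANKL replicates 1 and 2 were above all vehicle libraries and RANKL replicate 3 fell among them. The counts behind these values were 4480, 2988 and 2439 in the RANKL libraries, against 3130, 2631 and 2674 in the vehicle libraries. The highest RANKL library was 1.61 times the lowest, against 1.11 times among vehicle libraries. Among all genes 97.0% had a log2 CPM range within the RANKL group no wider than that of Mypn. The log2 fold change of 0.28 ± 0.12 (SE), with an interval of 0.03 to 0.52, was not called. It stood at 0.06 without RANKL replicate 1 and at 0.42 without RANKL replicate 3, where Mypn was called higher. Mypn lies on the minus strand of chromosome 10 from 63115795 to 63203952.

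Myozenins, also named calsarcins, link alpha-actinin and filamin C in the Z-disc to the phosphatase calcineurin, and Myoz1 is the form of fast fibres while Myoz2 is that of heart and slow fibres. Myoz1 was scarce, with 5.23, 5.08 and 3.17 CPM in the RANKL libraries, against 4.25, 4.36 and 3.55 CPM in the vehicle libraries. Its RANKL libraries stood on both sides of the vehicle group. At counts of 105 to 197 under RANKL and 131 to 165 under vehicle, its log2 fold change was 0.16 ± 0.16 (SE), and the interval of -0.19 to 0.51 covers changes in both directions. It was 0.03 without RANKL replicate 1, 0.07 without RANKL replicate 2, 0.07 without vehicle replicate 3 and 0.35 without RANKL replicate 3.

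Myoz2 was abundant, with 251, 234 and 225 CPM in the RANKL libraries, against 215, 227 and 232 CPM in the vehicle libraries. The groups overlapped, and only RANKL replicates 1 and 2 exceeded every vehicle library. For Myoz2 the log2 fold change was 0.08 ± 0.04 (SE), with an interval of -0.01 to 0.16, and it was 0.03 without RANKL replicate 1 and 0.04 without vehicle replicate 1. In RPKM Myoz1 was a small fraction of Myoz2 in all libraries, at a mean ratio of 0.0170 ± 0.00372 under RANKL and 0.0163 ± 0.00215 under vehicle (SD, n = 3 each). The size of this ratio rests on the gene lengths behind the deposited values. With merged exon lengths the vehicle levels were 2.14 CPM per kilobase for Myoz1 and 65.7 CPM per kilobase for Myoz2, which gives a larger ratio. Myoz1 lies on the minus strand of chromosome 14 from 20649107 to 20656540 and Myoz2 on the minus strand of chromosome 3 from 123006206 to 123035015.

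Cmya5 encodes myospryn, a very large costamere protein related to the TRIM family that binds desmin and anchors protein kinase A. It had the highest fold change of the 9 genes and the lowest counts, 157, 62 and 39 in the RANKL libraries, against 43, 35 and 35 in the vehicle libraries. In CPM these were 4.17, 1.82 and 1.18 under RANKL, against 1.11, 1.05 and 0.948 under vehicle. All RANKL values were above all vehicle values, but RANKL replicate 1 stood far above the other two and RANKL replicate 3 hardly above the vehicle libraries. The log2 fold change was 1.23 ± 0.36 (SE), with an interval of 0.46 to 2.00. Without RANKL replicate 1 it was 0.54 and no longer called, and the call also ended without any one of the vehicle replicates, in DESeq2, in limma-voom and with the deposited log2 values.

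Summed counts of Cmya5 gave a ratio of 2.43 per total count (exact binomial 95% interval 1.94 to 3.05, counting error only) over all RANKL libraries. With RANKL replicate 1 left out the ratio was 1.49 (1.12 to 1.96). The spread within the RANKL group, with the highest library 3.54 times the lowest, was as wide as or wider than that of 99.98% of all genes, while the vehicle libraries differed by 1.17 times. Cmya5 lies on the minus strand of chromosome 13 from 93040713 to 93144724. Of its 11850 exon bases 2570 overlap exons of A630019I02Rik and Gm4814 on the opposite strand, and at such low counts this overlap makes its values uncertain.

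Des encodes desmin, the intermediate filament protein of muscle that links Z-discs to one another and to costameres. It had 3939.8, 3862 and 3799 CPM in the RANKL libraries, against 4111, 3996 and 4063 CPM in the vehicle libraries. Each RANKL library lay below each vehicle library, by a small margin. The log2 fold change was -0.07 ± 0.03 (SE), with an interval of -0.14 to 0, and it was not called in any of the 14 alternatives. Des lies on the plus strand of chromosome 1 from 75360329 to 75368579, with 220 of 3754 exon bases shared with Gm15179 on the opposite strand. The groups did not overlap in 5 of the 9 genes, beside 31.5% of all genes. RANKL libraries stood above in 2 (Xirp2 and Cmya5), beside 14.9% of all genes, and below in 3 (Xirp1, Smyd1 and Des), beside 16.6% of all genes.

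**Figure D2:**
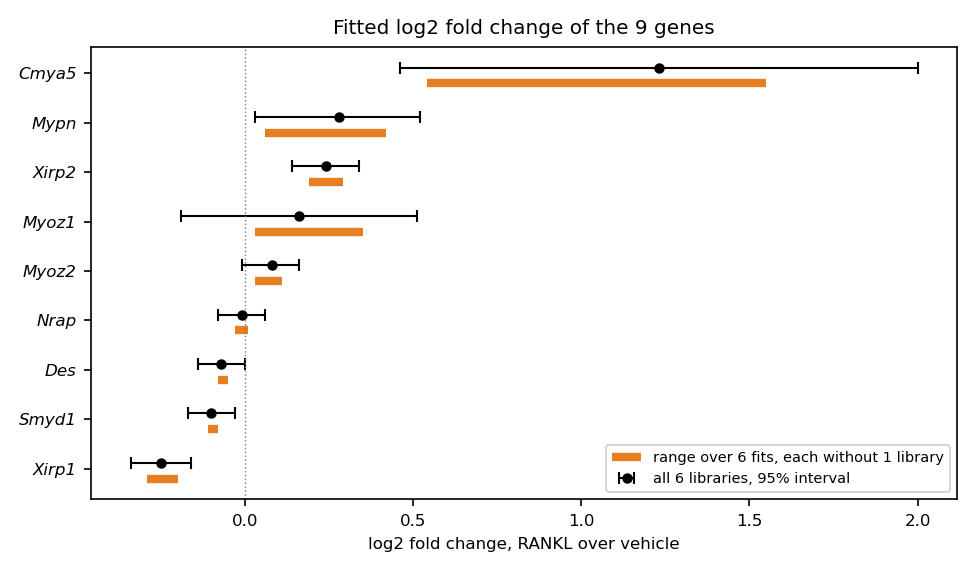
Fitted log2 fold change, RANKL over vehicle (horizontal axis), of the 9 genes, with the 95% interval (black) and the range over 6 fits that each leave out 1 library (orange). The orange bars of Xirp1 (-0.29 to -0.20) and Xirp2 (0.19 to 0.29) are narrow, and that of Cmya5 runs from 0.54 to 1.55.

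The level per length, which allows genes to be compared, spanned several orders of magnitude on the RPKM scale. In the vehicle libraries Des stood at 1324 ± 18.9 RPKM, 19th of all genes, and Cmya5 at 0.0921 ± 0.00680 RPKM, at rank 12585 of 12625 (SD, n = 3). Between them, vehicle means were 195 ± 7.44 for Myoz2, 69.1 ± 1.81 for Xirp1, 61.3 ± 1.55 for Nrap and 53.7 ± 1.10 RPKM for Smyd1 (SD, n = 3). Lower down came Mypn at 14.8 ± 0.825, Xirp2 at 10.6 ± 0.549 and Myoz1 at 3.17 ± 0.339 RPKM. Neighbours in this order did not overlap in the vehicle libraries. Under RANKL the only neighbours that overlapped were Xirp1, at 53.6 to 60.7 RPKM, and Nrap, at 59.4 to 61.9 RPKM.

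One place in this order rests on the gene length used. The deposited values imply a length of 1.15 kb for Myoz2, whereas its merged exons in GENCODE M21 hold 3.42 kb, which would put its vehicle level at 65.7 CPM per kilobase, between Xirp1 and Nrap. The implied lengths of Xirp1 (5.84 kb), Nrap (5.50 kb) and Cmya5 (11.9 kb) stood close to their merged exons of 5.84, 5.51 and 11.85 kb, and that of Xirp2 was equally close. The median merged exon length was 5.51 kb for the 9 genes and 4.52 kb over 12176 matched genes.

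**Figure D3:**
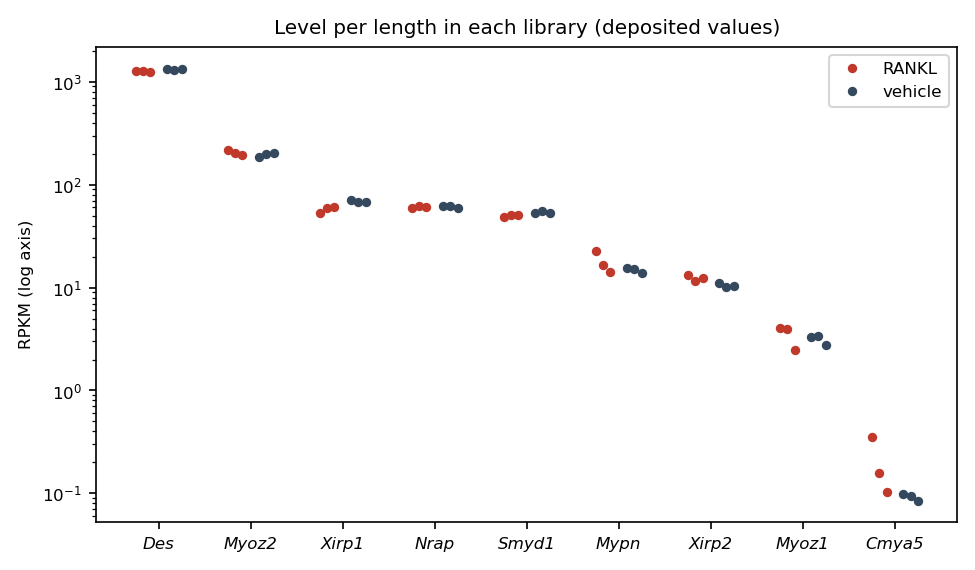
RPKM of the 9 genes (log axis) in each RANKL library (red, left) and each vehicle library (blue, right), read from the deposited log2 values. Levels run from 1324 RPKM for Des to 0.0921 RPKM for Cmya5 as vehicle means, and each gene's libraries lie close together apart from Mypn, Myoz1 and Cmya5 under RANKL.

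Vehicle replicate 1 was the highest vehicle library for 6 of the 9 genes, beside 37.1% of all genes. RANKL replicate 1 was the highest RANKL library for 6 of the 9 genes, beside 35.6% of all genes. RANKL replicate 3 was the lowest RANKL library for 5, beside 35.5% of all genes. Both held at once for Mypn, Myoz1, Myoz2, Cmya5 and Des, 5 of 9 genes, beside 21.2% of all genes. Among the partner genes named below as higher under RANKL it held for 4 of 6, Ankrd1, Ankrd23, Tmod4 and Myf6. Set against the vehicle mean of log2 CPM, RANKL replicate 1 stood at 1.95 for Cmya5, 0.62 for Mypn and -0.37 for Xirp1, and RANKL replicate 3 at 0.18, -0.07 and -0.19 for the same genes. The same RANKL replicate 1 also had the highest summed level of proliferation markers (159.7 CPM, against 139 and 139.8 CPM in RANKL replicates 2 and 3) and of fibroblast markers (5487 CPM, against 5024 and 4908 CPM). Vehicle replicate 1 likewise had the highest sums of the vehicle libraries, by smaller margins. They were 117 CPM for proliferation markers, against 110.4 and 111.2 CPM, and 4684 CPM for fibroblast markers, against 4458 and 4433 CPM. The part of that difference between RANKL libraries in the values of Cmya5 and Mypn was not tested. What the labels give on the libraries does not separate RANKL replicate 1 from the rest.

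The 3 genes with the widest range of log2 CPM over the 6 libraries were Cmya5 (2.07), Myoz1 and Mypn (0.71 each). Their nearest genes were sought among the 11916 genes that averaged 1 CPM or more, by the root mean square difference of centred log2 CPM over 6 libraries. Nearest to Cmya5 were Greb1 (0.162), Rnase1 (0.199) and Cilp (0.219), and all 3 were highest in RANKL replicate 1. Cilp, a cartilage and matrix protein, had 292, 178 and 135 CPM in the RANKL libraries, against 114, 116 and 104 CPM in the vehicle libraries. Nearest to Mypn were Clip4 (0.040), Scml4 (0.046) and Padi2 (0.050), with 66.1, 51.0 and 44.0 CPM of Clip4 in the RANKL libraries, against 46.7, 44.0 and 42.8 CPM in the vehicle libraries. Nearest to Myoz1 were Col19a1 (0.064), Nr4a2 (0.065) and Ccr9 (0.074). The likeness is given as a description over 6 libraries.

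**Figure D4:**
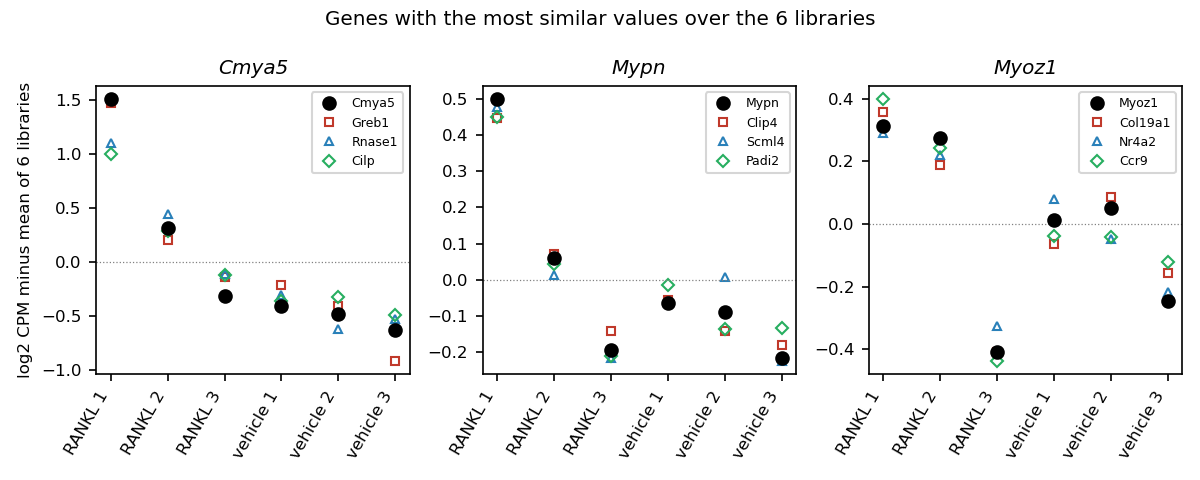
Log2 CPM minus the mean of the 6 libraries (vertical axes, drawn without a prior count) for Cmya5, Mypn and Myoz1 (black) and for the 3 genes nearest to each (open symbols), with RANKL libraries left of vehicle libraries. In the Cmya5 and Mypn panels the highest point of each gene is RANKL replicate 1, at 4.17 CPM for Cmya5 and 119 CPM for Mypn.

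Partners of these proteins were described through 4 lists drawn up by role, with earlier results of these data known. Calls of their members come from edgeR's test over all genes, but the shares called in a list are a description and no independent test. The counts below are to be read beside the 5.35% of all genes called higher and the 7.5% called lower. Of 31 genes of the Z-disc and of partners of Xin, myopalladin or the myozenins, all were measured, 2 rose, 9 fell and 20 did not pass, with a median log2 fold change of -0.07 beside 0.005 over all genes. Ldb3, a Z-disc protein that binds alpha-actinin and myozenins, fell to 289, 289.6 and 286 CPM in the RANKL libraries, against 335, 337 and 338 CPM in the vehicle libraries (log2 fold change -0.22 ± 0.03, adjusted p = 0.000177). Flnc, filamin C, a crosslinker of actin that binds Xin and the myozenins, fell to 1826, 1813 and 1825 CPM under RANKL, against 2338, 2172 and 2128 CPM under vehicle (-0.28 ± 0.04, adjusted p = 0.000257). Synpo2l, an actin-binding protein of the Z-disc, fell by 0.20 ± 0.03 on the log2 scale (adjusted p = 0.000849). The other 6 that fell lay between -0.29 (Fhl2) and -0.13 (Synpo2), and in all 9 the groups did not overlap.

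The 2 higher genes of that list were a share near that of all genes. Ankrd1, the ankyrin repeat partner of myopalladin, rose by 0.11 ± 0.03 (adjusted p = 0.026), and Ankrd23, another ankyrin repeat protein of the sarcomere, by 0.24 ± 0.07 on the log2 scale (adjusted p = 0.0351). Ankrd2, the third of this family in the list, was at -0.07 ± 0.04 and did not pass (adjusted p = 0.289, chosen after its values were seen). Ankrd23 had 252, 208 and 194 CPM in the RANKL libraries, against 190.0, 184 and 181 CPM in the vehicle libraries. Its exons share 2109 bases with Gm42417 on the same strand, so its counts are uncertain. Ankrd1 was not called with the deposited log2 values, nor without RANKL replicate 2, vehicle replicate 2 or vehicle replicate 3 (adjusted p over the alternatives 0.00374 to 0.132). Ankrd23 was not called in DESeq2, with the deposited log2 values or without any one vehicle replicate (0.00346 to 0.217), and its log2 fold change was 0.12 without RANKL replicate 1. The list had 4 higher genes without RANKL replicate 1 or 3, 1 without RANKL replicate 2 or vehicle replicate 1, and 0 without vehicle replicate 2 or 3. Neb, nebulin, had the highest CPM of the list as a mean over the 6 libraries, although Ttn was higher in the vehicle mean, and did not pass (-0.13 ± 0.06, adjusted p = 0.189), with calls as lower only without RANKL replicate 1 or vehicle replicate 3.

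Of 34 measured costamere and intermediate filament genes, out of 36 listed, 9 fell, 0 rose and 25 did not pass in edgeR's test. Before adjustment, 3 higher members had a p under 0.05, and 0 were called higher by limma on the deposited log2 values, by limma-voom or by DESeq2. The median was -0.06. Itga7, the muscle laminin receptor subunit, fell to 1675, 1763 and 1757 CPM in the RANKL libraries, against 2038, 1967 and 1979 CPM in the vehicle libraries (log2 fold change -0.20 ± 0.03, adjusted p = 0.00131). Dysf, dysferlin of membrane repair, fell by 0.19 ± 0.04 (adjusted p = 0.00303) and Zyx, zyxin of focal adhesions, by 0.17 ± 0.03 (adjusted p = 0.00311). Nes, nestin, an intermediate filament partner of desmin and the most abundant of the list in CPM, fell by 0.14 ± 0.03 (adjusted p = 0.0156), a call that ended without vehicle replicate 2. The other 5 that fell, named after their values were seen, were Vcl, Tln1, Itgb1bp2, Cdh2 and Plec, at -0.25 (Itgb1bp2) to -0.16. With total count scaling 3 members of the list were called higher, with the length trend removed 1, and with the replicate block 1. Exons of Dysf and Zyx overlap genes on the opposite strand by 457 and 236 bases.

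Of 36 genes of myofibril assembly and folding, all were measured, 3 rose, 4 fell and 29 did not pass, with a median of 0. These shares lie near those of all genes. Klhl41, which binds Nrap and takes part in myofibril assembly, rose to 842, 817 and 829 CPM in the RANKL libraries, against 759, 781 and 756 CPM in the vehicle libraries (log2 fold change 0.12 ± 0.03, adjusted p = 0.0219). Lmod2, a leiomodin that elongates thin filaments, rose by 0.12 ± 0.03 (adjusted p = 0.0192). Tmod4, a tropomodulin that caps them, rose by 0.94 ± 0.23 (adjusted p = 0.0172) at low levels, with 2.23, 1.88 and 1.18 CPM in the RANKL libraries, against 0.849, 1.05 and 0.894 CPM in the vehicle libraries. None of these rises was called without vehicle replicate 1 or vehicle replicate 3, and Klhl41 and Lmod2 were also not called without vehicle replicate 2, nor Klhl41 and Tmod4 without RANKL replicate 2, nor Tmod4 without RANKL replicate 1.

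Of the falls of that list, 3 are named by rule. Enah, an actin elongation factor of the family that binds Xin, fell by 0.17 ± 0.03 (adjusted p = 0.00151), Bag3, a Z-disc cochaperone, by 0.22 ± 0.04 (adjusted p = 0.00182) and Mybph, myosin binding protein H, by 0.14 ± 0.03 (adjusted p = 0.0105), and each of these 3 was called in all 14 alternatives. A stretch of 1162 exon bases of Mybph overlaps Adora1 on the opposite strand. The other was Fhod3 (-0.17), named after its values were seen, and the list had 3 lower genes in place of 4 with total count scaling, with the deposited log2 values and without RANKL replicate 2, vehicle replicate 2 or vehicle replicate 3. Unc45b, the myosin chaperone that works with Smyd1, had a log2 fold change of 0.03 ± 0.03 and did not pass (adjusted p = 0.605, chosen after its values were seen). Hsp90ab1, the most abundant of the list in CPM, stood at -0.05 ± 0.03 and did not pass (adjusted p = 0.314). Near-identical copies elsewhere in the genome make the counts of Hsp90ab1, and of Naca in the next list, uncertain.

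Of 26 measured transcriptional regulators of muscle structural genes, out of 29 listed, 1 rose, 9 fell and 16 did not pass, with a median of -0.08. Mef2d, a MEF2 factor of differentiated muscle, fell to 244, 249 and 258 CPM in the RANKL libraries, against 310.2, 292 and 286 CPM in the vehicle libraries (log2 fold change -0.24 ± 0.04, adjusted p = 0.000596). Mef2c and Mef2a did not pass, at 0.01 ± 0.04 and -0.09 ± 0.03 (adjusted p = 0.851 and 0.104, chosen after their values were seen). Naca, whose muscle form skNAC binds Smyd1, fell by 0.29 ± 0.04 (adjusted p = 0.000418), and Nfix, a factor of fetal myogenesis, by 0.19 ± 0.03 (adjusted p = 0.00123). Myf6, the MyoD family factor of late differentiation, was the gene that rose, by 0.82 ± 0.16 (adjusted p = 0.00456), with 10.4, 7.08 and 6.10 CPM in the RANKL libraries, against 4.48, 4.93 and 4.09 CPM in the vehicle libraries. These 4 genes (Mef2d, Naca, Nfix and Myf6) were called in all 14 alternatives, and without vehicle replicate 2 only 5 of the list fell. The falls in these lists stand beside the lower summed level of myotube markers and the higher Mki67, Top2a, Cdk1 and Ccnb1 given above. The part of those markers in the falls was not tested.

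**Figure D5:**
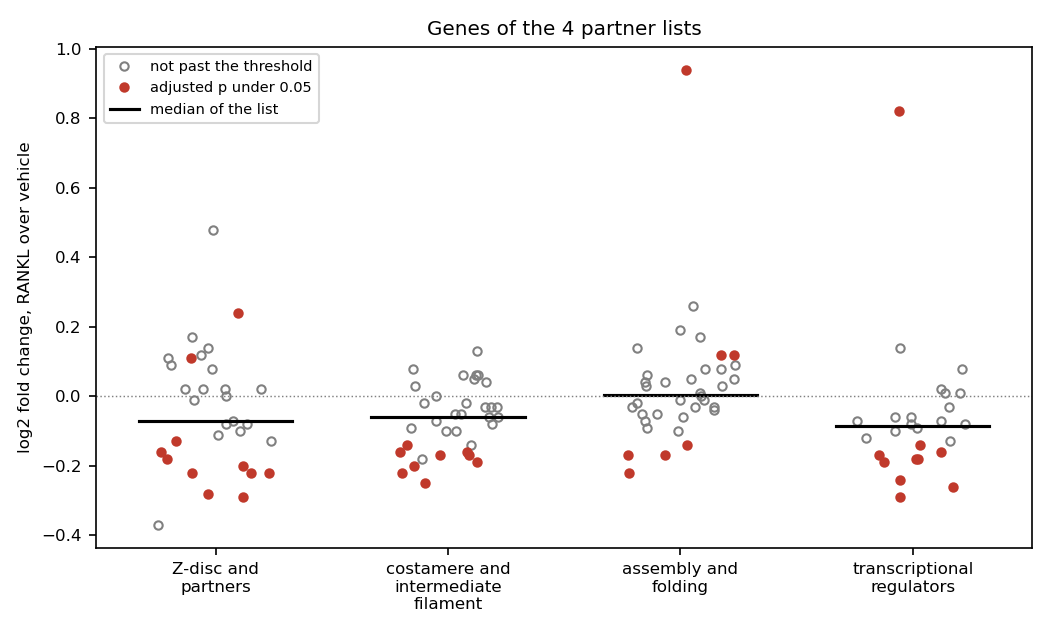
Log2 fold change, RANKL over vehicle (vertical axis), of each measured gene of the 4 partner lists, with filled points for an adjusted p under 0.05 by edgeR's quasi-likelihood test, open points for the others and the list median as a line. Most filled points lie between -0.29 and -0.13, and the highest are Tmod4 (0.94) and Myf6 (0.82).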

How the data were processed

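Whole-number counts per gene symbol were used as the authors deposited them, without 4708 blank lines that hold no counts. The submitters' processing notes name mm10, STAR, FastQC and edgeR. Not given in the sources used here are the counter, its annotation and its strand setting. In each gene of the deposited counts the third-highest library has at least 0.504 CPM, so low genes had been removed before deposit. The other deposited table holds log2 values, read here from the values as log2 RPKM. The header names no unit.

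Reads were paired, of 75 bases. RANKL was compared with vehicle in edgeR 4.0.16 (R 4.3.3) with TMM scaling, filterByExpr, the quasi-likelihood F test and an adjusted p (Benjamini-Hochberg, 12625 genes) under 0.05. CPM uses TMM-scaled totals. SE is the log2 fold change divided by the square root of F. Log2 CPM used a prior count of 2. Alternatives used DESeq2 1.42.0, limma 3.58.1, other scalings, no filter, a length correction, a replicate block and each library left out. On simulated counts of 12625 genes edgeR recovered 84% of changes of log2 0.5 and 100% of log2 1. Smaller changes, as most given here are, were not simulated, nor were differences that many genes of a library share. The simulation therefore does not give the recovery of the changes reported here. Within groups, chi-square per gene between 2 libraries was 3.39 to 9.52, above sampling noise, so each library was kept. Count ratio intervals hold counting error alone. Positions come from GENCODE M21 (mm10). Promoters come from RefSeq (GRCm38.p6), for 7 of the 9 genes.

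Members and lists were chosen with earlier results of these data known. Named were the 9 members, from each list up to 3 genes per direction by smallest p and the gene of highest mean CPM, and the 3 nearest genes of the 3 members with the widest range. Others are marked as chosen after their values were seen.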

Additional observations from a re-analysis of the deposited data

How the results depend on the processing

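The 14 alternatives include the fit with no filter, which could not differ from the main fit, since the filter removed 0 genes. All 9 log2 fold changes kept their sign in the 14 alternatives except that of Nrap. It was 0.02 with total count scaling, 0.01 with the length trend removed, and -0.03 to 0.01 with 1 library left out. Smyd1 was -0.07 and Des -0.04 with total count scaling. Cmya5 ranged from 0.54 to 1.55 with 1 library left out. Members called higher numbered 1 in DESeq2, 1 in limma-voom and 1 with the deposited log2 values, and 1 to 3 with 1 library left out. Members called lower numbered 2 in limma-voom and 2 with the length trend removed.

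With total count scaling 1070 genes were higher and 626 lower, and the higher genes were 5 in the Z-disc list, 3 in the costamere list and 5 in the assembly list. The Z-disc list had 1 higher in DESeq2 and 0 with the deposited log2 values, and the costamere list 1 with the length trend removed. With 1 library left out, 373 to 746 genes were higher and 537 to 880 lower, and 0 to 4 Z-disc and 0 to 6 assembly genes were higher, while 5 to 11 regulators were lower. The lowest counts over all genes came without vehicle replicate 2. They were 426 and 561 in the fit lacking vehicle replicate 1, and 596 genes were lower in the fit lacking RANKL replicate 2. With the replicate block 730 genes were higher and 1008 lower, with 3 members higher (Mypn added), 1 costamere gene and 5 assembly genes. In the labels, samples of the same number share only that number. Their deviations from group means correlated at 0.12, 0.05 and 0.02 over 11925 genes, and those of unlike numbers at -0.10 to 0.05. Whether samples of the same number were handled together was not tested.

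With merged exon lengths the vehicle level was 39.6 for Smyd1, 13.3 for Mypn, 2.14 for Myoz1, 65.7 for Myoz2 and 1082 CPM per kilobase for Des. All 9 nearest genes were the same with total count scaling. That scaling shifts all genes of a library nearly alike, so it could hardly alter the differences between genes and is no check on them. Of 294 values for the named partner genes over the alternatives, 271 kept side and sign, 21 lost the call and 2 gained it. Those that kept side and sign include the values of the fit with no filter, which repeats the main fit. Cmya5 and Myoz1 had the lowest counts of the 9 genes. The cause of these shifts was not tested.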
